A study of Arabidopsis thaliana with 8 samples.

Results

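The cytosolic ribosomal protein genes of Arabidopsis thaliana were followed across 4 seedling genotypes. Members were taken by name from the part of the deposited table read here, which covers chromosome 1 and the start of chromosome 2: the loci whose symbol is RPL, RPS or RPP with a number and a paralogue letter, which left out plastid proteins such as RPL6 and RPL21. The rule found 50 genes among the 9998 loci of that part, 35 for the large subunit (RPL), 14 for the small subunit (RPS) and 1 for the stalk (RPP1A). They encode 27 proteins, 15 of which are represented by 2 or more loci, and 46 of the genes lie on chromosome 1 and 4 on chromosome 2. Of the 50 genes, 47 carried values and 44 had enough counts for the test.

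RNA came from whole seedlings grown for 11 days at 22 °C on MS medium under a 16:8 photoperiod, and each genotype had 2 libraries. The sr45 mutant carries the T-DNA allele sr45-1, sap18sr45 carries T-DNA insertions in SAP18 and SR45, and asap carries insertions in SAP18, SR45 and ACINUS. Col0 is the wild-type accession, and the sr45 allele is shared by all 3 mutants. Each gene is represented by 1 insertion allele, so an effect of the line and of the gene cannot be told apart. SAP18, SR45 and ACINUS form the ASAP complex, which accompanies the exon-junction complex on transcripts being spliced.

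A ribosome has a large subunit, where peptide bonds form, and a small subunit, which reads the messenger RNA. A flexible stalk of acidic P proteins on the large subunit recruits the translation factors that use GTP. In plants almost every cytosolic ribosomal protein is encoded by several paralogues, whose proteins are very similar. These genes are among the most strongly expressed in growing tissue, and many Arabidopsis lines that lack a paralogue have pointed or narrow leaves.

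Levels are given in cRPKM, the RPKM corrected for mappable gene length that the authors deposited, and changes are log2 fold changes of raw counts with their standard error (SE). A gene was called higher or lower where the adjusted p of edgeR's quasi-likelihood test, over all 5261 genes tested, was under 0.05. SR45 (AT1G16610) was at 6.62 and 4.99 cRPKM in sr45, 13.6 and 14.4 in sap18sr45 and 6.23 and 3.85 in asap, against 24.2 and 21 in Col0. It was lower than Col0 in all 3 mutants, but in sap18sr45 it was 2.39-fold higher than in sr45 (log2 change 1.26 ± 0.21, adjusted p = 0.000234) and only 1.69-fold lower than in Col0 (-0.76 ± 0.17, adjusted p = 0.00104), and that call did not hold in limma fits of log2(cRPKM + 0.5), or once Col0 replicate 1 was left out (largest adjusted p = 0.0611). Seedlings labelled sap18sr45 thus did not match sr45 in SR45 RNA, and counts over the whole gene do not place reads relative to an insertion. Summed counts over the loci read here, which are not the sequencing depth, lay between 1295244 and 4052420 a library. Green tissue, dividing-cell and root markers also moved with genotype. In asap against Col0, 25.6% of all genes tested were higher and 26% lower. Of 13 dividing-cell genes 8 rose in asap, their summed level being 92.3 and 82.3 cRPKM in asap, 68.1 and 65 in sap18sr45 and 50.5 and 64.8 in sr45, against 44.2 and 39.6 in Col0. Root genes (4 of 4 higher in asap) summed to 47.1 and 40.9 cRPKM in asap, 9.63 and 7.98 in sap18sr45 and 3.67 and 4.93 in sr45, against 3.19 and 2.66 in Col0. Of these root markers NRT2.1 and EXPA7 had 0 counts in Col0 replicate 2. Of 14 green-tissue genes 11 fell in asap and 1 rose, with summed levels of 78011 to 78809 cRPKM in asap, 84435 to 85332 in sap18sr45 and 86314 to 88790 in sr45, against 78014 to 81149 in Col0. RBCS-1A weighs heavily in this sum, with a mean of 24147 cRPKM in asap against 17732 in Col0. The green-tissue sum therefore does not follow the 11 genes that fell. The part of these markers in the results below was not tested, and a change in the share of a cell type cannot be told apart from a change of RNA within cells.

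The promoters of ribosomal protein genes in plants are known for a pair of short motifs, the telo-box and the site II element. Site II elements are bound by TCP transcription factors. The 200 bases upstream of the annotated start of 8 members are shown. They include the 3 strongest risers in asap (both RPL9B loci and RPL35AB) and another that rose over 2-fold (RPL41E). Also shown are the stalk gene RPP1A, a gene with the telo-box alone (RPL30B) and the gene called lower (RPL18AA, AT1G29970). RPL6C was added as a gene with neither motif that changed little. Sequences are from RefSeq, build TAIR10.1, 5′ to 3′ on the strand of the gene. Capitals mark AAACCCTA (telo-box) and TGGGCC or TGGGCT (site II), or their reverse complements. The order of the regions is RPL9B at chr1:12010679-12010878 (plus strand, AT1G33120), RPL9B at chr1:12023025-12023224 (plus, AT1G33140), RPL35AB at chr1:15652543-15652742 (minus), RPL41E at chr1:20962370-20962569 (plus), RPP1A at chr1:51211-51410 (minus), RPL30B at chr1:29305412-29305611 (minus), RPL18AA at chr1:10501499-10501698 (minus) and RPL6C at chr1:27849009-27849208 (minus).
RPL9B (AT1G33120): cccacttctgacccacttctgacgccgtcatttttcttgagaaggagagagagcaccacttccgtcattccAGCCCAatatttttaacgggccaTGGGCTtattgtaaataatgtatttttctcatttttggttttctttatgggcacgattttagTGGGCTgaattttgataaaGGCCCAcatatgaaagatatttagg
RPL9B (AT1G33140): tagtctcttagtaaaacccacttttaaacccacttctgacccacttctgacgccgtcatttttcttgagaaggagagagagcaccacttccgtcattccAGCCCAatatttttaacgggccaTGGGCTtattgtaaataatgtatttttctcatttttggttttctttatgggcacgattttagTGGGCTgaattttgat
RPL35AB: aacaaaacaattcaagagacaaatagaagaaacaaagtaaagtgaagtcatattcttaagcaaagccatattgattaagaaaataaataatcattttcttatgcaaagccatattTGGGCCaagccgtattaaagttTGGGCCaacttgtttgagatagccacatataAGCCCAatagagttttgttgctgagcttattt
RPL41E: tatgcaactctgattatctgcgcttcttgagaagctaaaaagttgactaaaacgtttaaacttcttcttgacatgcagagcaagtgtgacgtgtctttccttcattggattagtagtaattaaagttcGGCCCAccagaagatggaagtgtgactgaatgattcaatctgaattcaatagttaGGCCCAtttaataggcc
RPP1A: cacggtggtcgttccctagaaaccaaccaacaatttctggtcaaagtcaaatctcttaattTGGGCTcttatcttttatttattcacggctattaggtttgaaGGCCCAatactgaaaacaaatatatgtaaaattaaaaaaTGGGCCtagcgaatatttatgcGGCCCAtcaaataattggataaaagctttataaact
RPL30B: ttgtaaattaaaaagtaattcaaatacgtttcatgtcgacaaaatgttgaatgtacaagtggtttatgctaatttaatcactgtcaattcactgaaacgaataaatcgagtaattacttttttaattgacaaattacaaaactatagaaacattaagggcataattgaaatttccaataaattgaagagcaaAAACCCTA
RPL18AA (AT1G29970): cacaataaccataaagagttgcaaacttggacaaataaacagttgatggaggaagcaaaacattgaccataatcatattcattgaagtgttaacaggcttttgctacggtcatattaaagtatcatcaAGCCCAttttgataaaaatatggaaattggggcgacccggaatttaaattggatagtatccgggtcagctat
RPL6C: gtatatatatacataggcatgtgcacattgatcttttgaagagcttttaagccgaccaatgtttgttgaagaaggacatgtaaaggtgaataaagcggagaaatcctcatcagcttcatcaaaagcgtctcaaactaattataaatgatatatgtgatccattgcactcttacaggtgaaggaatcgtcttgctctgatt

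The upstream regions of the RPL9B loci share an unbroken run of 172 identical bases, shifted along the window. Within it lie AGCCCA and TGGGCT elements in the same order in both genes. The RPL35AB region holds 3 site II elements, RPP1A holds 4 and RPL41E holds 2, whereas RPL18AA (AT1G29970) holds 1. In the wider window searched next, both RPL9B loci, RPL35AB, RPL41E and RPP1A also hold a telo-box. The window of AT1G29965, the other locus named RPL18AA, holds 1 telo-box and 2 site II elements. In RPL30B the telo-box ends at the base before the annotated start.

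Both motifs were then searched on both strands in a window from 250 bases upstream to 50 bases downstream of the start, and overlapping matches on opposite strands were counted separately. A site II element was found in 42 of the 50 members (84%), and in 21.7% of the 27443 windows of nuclear protein-coding genes. It occurred at 2 or more positions in 68% of members and in 13.7% of all genes. The telo-box was found in 23 members (46%) and in 6.22% of all genes. Both motifs occurred in 40% of members and 2.2% of all genes, and neither in 5 members (RPL6C, RPL21A at AT1G09590, RPL37A, RPL34A and RPS16A). The median log2 change in asap was 0.93 for the 14 tested members with both motifs, 0.73 for the 25 with a single motif and 0.93 for the 5 with neither. Of the 5 with neither motif RPL6C had the lowest change (0.19), and the highest was 1.27. With both motifs the changes ran from -1.27 to 2.18.

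**Figure D1:**
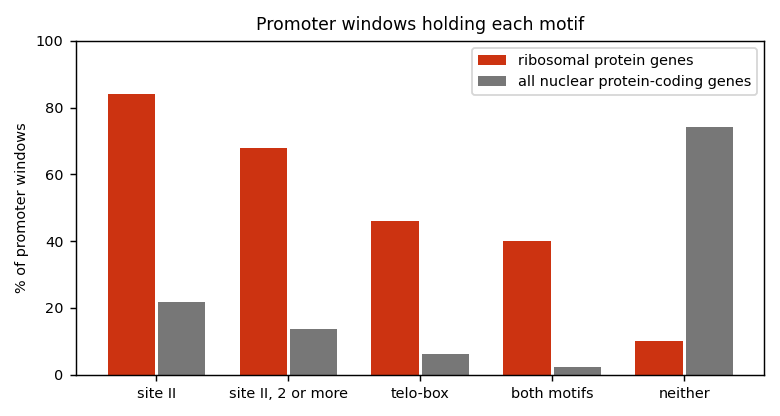
Share of promoter windows (y axis, percent) that hold each motif (x axis), in the 50 ribosomal protein genes (red) and in 27443 nuclear protein-coding genes (grey). Site II was found in 84% of members and 21.7% of all genes, and the telo-box in 46% and 6.22%.

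Ribosomal protein genes took a larger share of the counts read here in every mutant library than in either Col0 library. The 47 members with values held 2.34% and 2.2% of the counts over these loci in sr45, 2.16% and 2.21% in sap18sr45 and 3% and 3% in asap, against 1.56% and 1.56% in Col0. The large-subunit genes alone held 2.36% and 2.37% in asap, against 1.2% and 1.2% in Col0. The small-subunit genes held 0.541% and 0.535% in asap, against 0.313% and 0.319% in Col0. The order was therefore asap highest, then sr45 and sap18sr45, which overlapped, then Col0. The share also depends on the other genes in the table, and without the 50 most counted other loci the means were 4.58% in asap, 3.74% in sr45 and 3.57% in sap18sr45, against 2.52% in Col0.

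**Figure D2:**
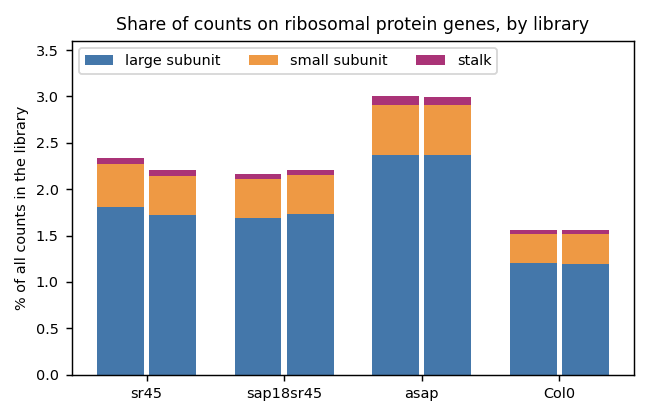
Percent of the counts of a library over the loci read here (y axis) that fell on ribosomal protein genes, stacked by large subunit, small subunit and stalk, with 1 bar per library and 2 per genotype (x axis). The asap bars reach 3%, the sr45 and sap18sr45 bars lie between 2.16% and 2.34%, and the Col0 bars reach 1.56%.

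The comparisons with Col0 set each labelled genotype against the same Col0 libraries, with the level of SR45 RNA in sap18sr45 above that in sr45 and asap. In asap 41 of the 44 tested members were higher than in Col0 and 1 was lower, with a median log2 change of 0.85, while 25.6% of all genes tested were higher and 26% lower, with a median of 0.01. In sr45 31 members were higher and 1 lower (median 0.54), against 15.2% of all genes higher and 16.5% lower. In sap18sr45 30 members were higher and 1 lower (median 0.41), against 12.9% of all genes higher and 14.2% lower. The changes were moderate in size: those called higher in asap ranged from 1.14-fold to 4.54-fold with a median of 1.81-fold, and 14 of them passed 2-fold. In sr45 the range was 1.19-fold to 2.32-fold and 3 members passed 2-fold. The highest in sap18sr45 was 1.92-fold.

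Genes of both subunits were among the risers. In asap 29 of 32 large-subunit genes and 11 of 11 small-subunit genes rose, with median log2 changes of 0.86 and 0.72. In sr45 22 large-subunit and 8 small-subunit genes rose (medians 0.54 and 0.47), and in sap18sr45 23 and 6 rose (medians 0.45 and 0.34). The difference between the subunits was not tested. By the study's own rule, a change of at least 2-fold whichever libraries are paired, 12 members were higher in asap, 1 in sr45 and none in sap18sr45. The rule also asked for at least 50 counts and over 5 cRPKM in both libraries of a genotype compared. Counts were quantile normalized over the loci read here. The share of all genes passing the rule was not counted, so these numbers have no background beside them.

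**Figure D3:**
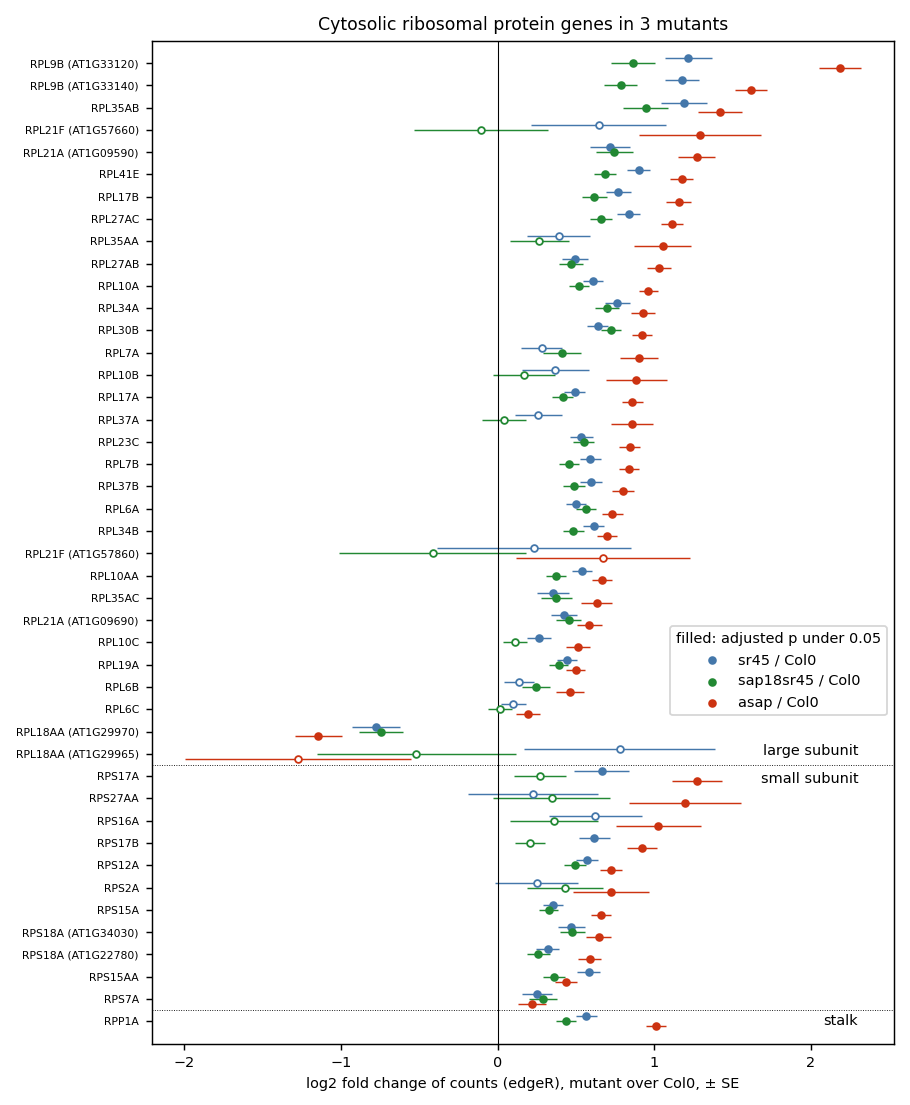
Log2 fold change of counts, each mutant over Col0, with SE (x axis) for the 44 tested genes (y axis), grouped by large subunit, small subunit and stalk and ordered by the change in asap. Filled points passed the adjusted p threshold of 0.05. In asap 41 genes were called higher and RPL18AA (AT1G29970) was called lower.

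The stalk gene RPP1A (AT1G01100) encodes the acidic protein P1. Its level was 447 and 431 cRPKM in sr45, 411 and 415 in sap18sr45 and 695 and 634 in asap, against 300 and 287 in Col0. All mutant libraries lay above Col0, and the asap libraries lay above the other mutants. The log2 change was 1.01 ± 0.06 in asap (2.01-fold, adjusted p = 2.44e-13), 0.56 ± 0.07 in sr45 (adjusted p = 1.25e-07) and 0.43 ± 0.06 in sap18sr45 (adjusted p = 6.89e-06).

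Among the large-subunit genes the highest changes in asap were those of the L9 family, whose protein lies near the base of the stalk. RPL9B at AT1G33120 was at 131 and 107 cRPKM in sr45, 94.3 and 95.8 in sap18sr45 and 229 and 279 in asap, against 45.5 and 56 in Col0. It was 4.54-fold higher in asap (log2 change 2.18 ± 0.13, adjusted p = 1.92e-13), 2.32-fold higher in sr45 (adjusted p = 2.81e-07) and 1.82-fold higher in sap18sr45 (adjusted p = 3.24e-05). RPL9B at AT1G33140 is annotated as PGY2, a gene of the PIGGYBACK group known for effects on leaf patterning. Levels were 381 and 293 cRPKM in sr45, 253 and 270 in sap18sr45 and 467 and 530 in asap, against 143 and 149 in Col0. Its rise was 3.06-fold in asap (1.61 ± 0.10, adjusted p = 8.67e-13), 2.26-fold in sr45 (adjusted p = 3.11e-09) and 1.72-fold in sap18sr45 (adjusted p = 2.17e-06). For both loci no mutant library overlapped Col0. Their coding sequences are 99.1% identical and share 76.3% of their 50-base words, so reads may be split between them, and the value of each locus alone is uncertain.

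RPL35AB (AT1G41880) encodes L35a, another protein of the large subunit, and has no such near-identical copy among the members. It was at 104 and 92.8 cRPKM in sr45, 84.1 and 85.8 in sap18sr45 and 130 and 125 in asap, against 41.9 and 43.1 in Col0. The groups did not overlap, and the changes were 1.42 ± 0.14 in asap (adjusted p = 1.85e-09), 1.19 ± 0.15 in sr45 (adjusted p = 3.22e-07) and 0.94 ± 0.14 in sap18sr45 (adjusted p = 7.92e-06). RPL41E (AT1G56045), for the very short protein L41, was chosen after its values were seen. It was at 628 and 614 cRPKM in sr45, 531 and 573 in sap18sr45 and 842 and 825 in asap, against 315 and 346 in Col0, a rise of 2.26-fold in asap (1.17 ± 0.07, adjusted p = 8.6e-14).

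RPL10A (AT1G14320, annotated as SAC52) had the highest mean level of the large-subunit genes. Its protein joins the large subunit late in assembly, as known from yeast. It was at 680 and 694 cRPKM in sr45, 674 and 655 in sap18sr45 and 975 and 971 in asap, against 438 and 453 in Col0. The sap18sr45 libraries lay just below those of sr45, no groups overlapped, and the change was 0.96 ± 0.06 in asap (adjusted p = 5.06e-13), 0.61 ± 0.06 in sr45 (adjusted p = 1.42e-08) and 0.52 ± 0.06 in sap18sr45 (adjusted p = 2.87e-07). RPL30B (AT1G77940), shown above for its telo-box, was 1.56-fold higher in sr45, 1.65-fold higher in sap18sr45 and 1.89-fold higher in asap (adjusted p = 1.59e-12 in asap).

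**Figure D4:**
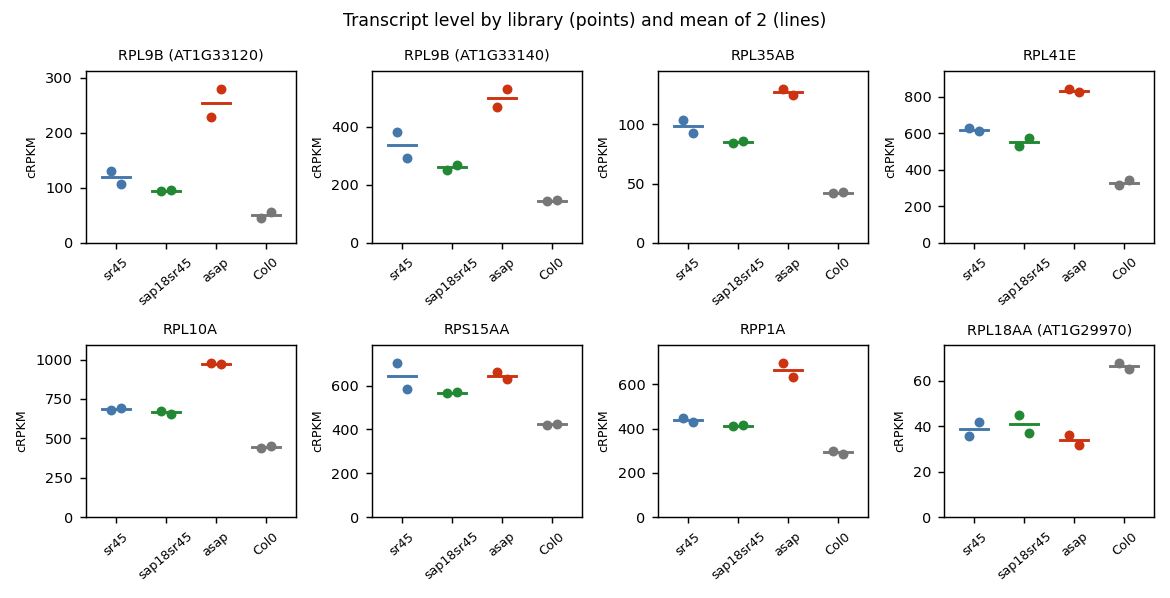
Level in cRPKM (y axis, from 0) of 8 ribosomal protein genes in sr45, sap18sr45, asap and Col0 (x axis), with points for libraries and lines for the mean of 2. The asap points lie above all others in 6 panels, RPS15AA overlaps between sr45 and asap, and RPL18AA (AT1G29970) is highest in Col0, at 67.7 and 65.4 cRPKM.

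A single member was called lower than Col0 by edgeR. RPL18AA at AT1G29970, annotated as 60S ribosomal protein L18A-1, was at 35.9 and 41.8 cRPKM in sr45, 45.2 and 36.9 in sap18sr45 and 36.2 and 31.6 in asap, against 67.7 and 65.4 in Col0. All mutant libraries lay below Col0, and those of sr45 overlapped with both other mutants. The log2 change was -1.14 ± 0.15 in asap (adjusted p = 2.87e-07), -0.78 ± 0.15 in sr45 (adjusted p = 0.000247) and -0.74 ± 0.14 in sap18sr45 (adjusted p = 0.000195). The second locus of that name, AT1G29965, has 96.4% of its length inside AT1G29970 on the same strand, so their reads cannot be separated. AT1G29970 has 939 coding bases and AT1G29965 has 537, of whose 50-base words 96.9% are shared. Counts at AT1G29970 may thus come from sequence outside the shared part, and its fall need not be one of L18a RNA. AT1G29965 had 4 to 22 counts a library. It was at 8.12 and 20.2 cRPKM in sr45, 6.53 and 5.92 in sap18sr45 and 3.95 and 3.97 in asap, against 8.25 and 9.2 in Col0. In edgeR it was called in no mutant (adjusted p = 0.142 in asap), while limma on log2 cRPKM called it lower in asap (adjusted p down to 0.0227).

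The other member that edgeR did not call in asap was RPL21F at AT1G57860, with 6 to 17 counts a library and a log2 change of 0.67 ± 0.56 (adjusted p = 0.324), which limma on log2 cRPKM called higher (adjusted p down to 0.00537). RPL21F at AT1G57660, 99.2% identical in coding sequence, had 13 to 49 counts and was at 21.9 and 22.8 cRPKM in sr45, 10.7 and 17.5 in sap18sr45 and 37.9 and 40.3 in asap, against 12.8 and 15.9 in Col0. It was called higher in asap (1.29 ± 0.39, adjusted p = 0.0067), but not without Col0 replicate 1 (adjusted p = 0.11). RPL22A and RPL27AA had 0 counts in all 8 libraries, which allows up to 0.74 to 2.32 CPM by library for counting error alone, and RPL30A had 3 counts in asap replicate 1 and none elsewhere. The 3 RPS2B loci, whose coding sequences are identical, carried no values.

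In the small subunit the gene with the highest mean level was RPS15AA (AT1G07770), for S15a. It was at 701 and 585 cRPKM in sr45, 564 and 569 in sap18sr45 and 660 and 628 in asap, against 422 and 426 in Col0. The asap libraries lay within the range of the sr45 libraries and above Col0. Its change was 0.44 ± 0.07 in asap (adjusted p = 1.19e-05), 0.58 ± 0.07 in sr45 (adjusted p = 3.51e-07) and 0.36 ± 0.07 in sap18sr45 (adjusted p = 0.000348).

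RPS17A and RPS17B encode S17 from coding sequences that are 97.9% identical, so reads may again be shared. RPS17B (AT2G05220) was at 485 and 417 cRPKM in sr45, 335 and 358 in sap18sr45 and 611 and 615 in asap, against 284 and 294 in Col0. It rose in sr45 (0.62 ± 0.10, adjusted p = 1.88e-05) and asap (0.92 ± 0.09, adjusted p = 3.38e-09) but was not called in sap18sr45 (0.20 ± 0.10, adjusted p = 0.122). There 4 of 13 alternatives called it higher, with an adjusted p down to 0.0272. RPS17A (AT2G04390) had log2 changes of 1.27 ± 0.16 in asap (adjusted p = 2.17e-07), 0.66 ± 0.17 in sr45 (adjusted p = 0.00436) and 0.27 ± 0.17 in sap18sr45 (adjusted p = 0.255). Its call in sr45 was lost without sr45 replicate 1 or Col0 replicate 1, with an adjusted p of up to 0.135.

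At the low end of the changes were RPS7A and RPL6C. RPS7A (AT1G48830) was at 99.8 and 113 cRPKM in sr45, 108 and 119 in sap18sr45 and 123 and 109 in asap, against 85.3 and 93.2 in Col0. Its change was 0.22 ± 0.09 in asap (adjusted p = 0.0448), 0.25 ± 0.09 in sr45 (adjusted p = 0.0417) and 0.29 ± 0.09 in sap18sr45 (adjusted p = 0.0167). Each of these calls was lost with DESeq2 and without Col0 replicate 1, with adjusted p up to 0.452 in asap, 0.401 in sr45 and 0.299 in sap18sr45 over the alternatives. RPL6C was at 183 and 172 cRPKM in sr45, 164 and 180 in sap18sr45 and 210 and 209 in asap, against 170 and 157 in Col0. It was called only in asap (0.19 ± 0.08, adjusted p = 0.0388), a call lost with DESeq2 and without any single library of that comparison.

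The steps between mutants compare genotypes that differ by label in SAP18 and in ACINUS. SR45 RNA also differed in both steps, being 2.39-fold higher in sap18sr45 than in sr45 and 3.03-fold lower in asap than in sap18sr45, so the insertion added and the level of SR45 cannot be told apart. In sap18sr45 against sr45 no member was higher and 2 were lower in edgeR, with a median log2 change of -0.10, while 2.51% of all genes were higher and 3.1% lower. The 2 lower were 4.55% of the tested members, near the share of all genes. At an unadjusted edgeR p under 0.05 0 members were higher and 8 lower, and DESeq2 called none higher and 3 lower. The shares of all genes in those settings were not counted, so these numbers have no background beside them. RPS17B was lower in sap18sr45 than in sr45 (-0.41 ± 0.10, adjusted p = 0.00929), and so was RPL9B at AT1G33140 (-0.39 ± 0.10, adjusted p = 0.022). Both calls were lost without sr45 replicate 1 and without either sap18sr45 library.

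In asap against sap18sr45 31 members were higher and 1 lower, with a median log2 change of 0.39, while 15.4% of all genes were higher and 16.7% lower. Of the large-subunit genes 25 of 32 rose, of the small-subunit genes 5 of 11, and RPP1A rose 1.49-fold (adjusted p = 3.68e-08). RPL21F at AT1G57660 had the highest change (2.64-fold, 1.40 ± 0.40, adjusted p = 0.00737), a call that was lost without sap18sr45 replicate 1 (adjusted p = 0.164). RPL9B at AT1G33120 was 2.49-fold higher (1.32 ± 0.13, adjusted p = 3.55e-09). RPL18AA at AT1G29970 was lower at the edge of the threshold (-0.40 ± 0.16, adjusted p = 0.0498), and 9 alternatives lost the call. RPS15AA had a change of 0.08 ± 0.07 (adjusted p = 0.456), called higher with library totals alone and with voom (adjusted p down to 0.0281), and RPS7A one of -0.07 ± 0.09 (adjusted p = 0.604). Without sap18sr45 replicate 1 fewer members were called, all of them higher, and the share of all genes called in that fit was not counted.

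Paralogues of a protein were then compared within each library, as the log2 ratio of their counts, in 15 pairs with enough counts. An exact permutation test over every assignment of libraries to genotypes asked whether the ratio differed among genotypes. The smallest p it allows is 0.00952, and no pair passed after adjustment over the 15 pairs (adjusted p = 0.143 or more), while 5 pairs had an unadjusted p under 0.05. A pair alone at the smallest p reaches no lower adjusted p than 0.143, and 3 pairs would have to be at it to pass, so the lack of a call does not show that a ratio was unchanged. In no pair were the members called in opposite directions.

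RPL37A and RPL37B, for the zinc-binding protein L37, had the smallest unadjusted p (exact permutation p = 0.00952, adjusted p = 0.143). The level of RPL37A was 7.58% and 8.27% of that of RPL37B in sr45, 7.13% and 7.51% in sap18sr45 and 10.5% and 10.2% in asap, against 10% and 9.89% in Col0. RPL37A lay lower relative to its partner in sr45 and sap18sr45 than in asap or Col0. RPL37A itself had a log2 change of 0.86 ± 0.14 in asap (adjusted p = 6.13e-06), 0.26 ± 0.15 in sr45 (adjusted p = 0.197) and 0.04 ± 0.14 in sap18sr45 (adjusted p = 0.874), and RPL37B rose in each.

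RPL6C stood at 56.5% and 50.2% of the level of RPL6A in sr45, 47.1% and 48.5% in sap18sr45 and 48.7% and 47.5% in asap, against 71.7% and 68.1% in Col0 (exact permutation p = 0.019, adjusted p = 0.143). RPL6A rose 1.66-fold in asap. RPL35AB stood at 59.9% and 71.4% of RPL35AC in sr45, 56.4% and 52.3% in sap18sr45 and 65.5% and 61.4% in asap, against 35.8% and 37.6% in Col0 (exact permutation p = 0.0476, adjusted p = 0.143). In both of these pairs the 6 mutant libraries did not overlap Col0, in opposite senses. Such a separation was not particular to them. The ratios of RPL6B to RPL6A, RPL10C to RPL10A and RPL17A to RPL17B also lay lower in all mutant libraries. Those of the RPL21A pair and of RPL34A to RPL34B lay higher in all of them.

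For the L21 pair named RPL21A, whose coding sequences are 96.2% identical, AT1G09590 stood at 60.9% and 59.6% of AT1G09690 in asap, 43.6% and 48.5% in sap18sr45 and 41.7% and 48.5% in sr45, against 40% and 34.5% in Col0 (exact permutation p = 0.0286, adjusted p = 0.143). The remaining pair under an unadjusted 0.05 was RPL34A with RPL34B (exact permutation p = 0.0476, adjusted p = 0.143), where RPL34A stood at 32.4% to 35.8% in the mutants against 28.9% and 31.8% in Col0. The RPL9B ratio was 49.1% and 52.7% in asap, 37.3% and 35.6% in sap18sr45 and 34.4% and 36.6% in sr45, against 31.8% and 37.7% in Col0 (exact permutation p = 0.133, adjusted p = 0.2).

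**Figure D5:**
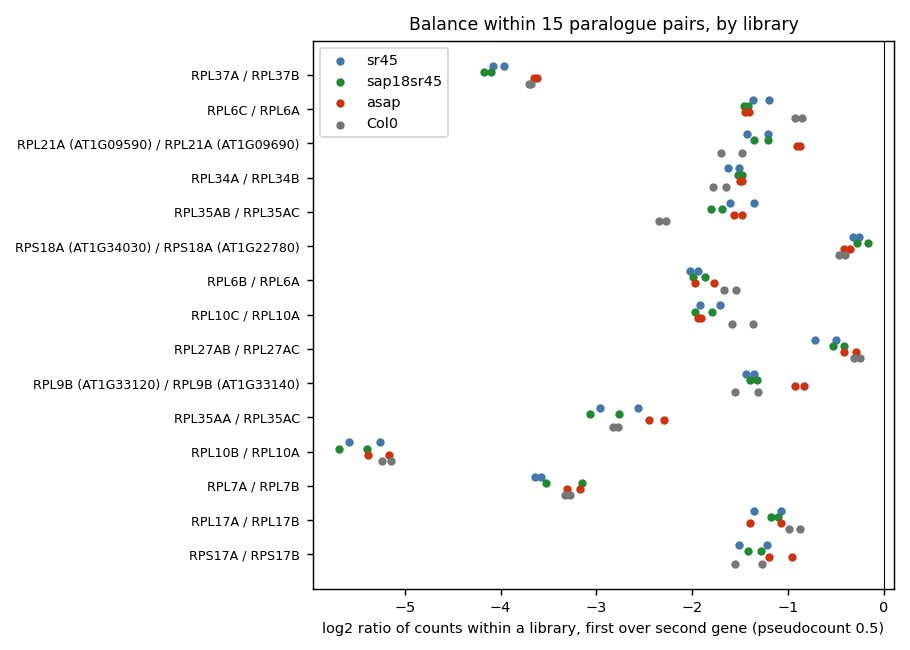
Log2 ratio of the counts of paralogues within a library (x axis) for 15 pairs (y axis, ordered by the exact p), with points for the 8 libraries coloured by genotype. RPL6C over RPL6A lies lower in the mutants than in Col0, RPL35AB over RPL35AC lies higher, and the exact test could not bring a pair alone under the adjusted threshold.

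Other genes of the translation machinery were counted in the same fits. Of 17 translation factor genes 11 rose in asap (64.7%), 8 in sr45 (47.1%, with 1 lower) and 7 in sap18sr45 (41.2%), while 25.6%, 15.2% and 12.9% of all genes were higher in asap, sr45 and sap18sr45. Their median log2 change was 0.32 in asap. The 3 loci named A3, for the elongation factor that brings tRNA to the ribosome, rose by 1.36 ± 0.09 to 1.51 ± 0.10 in asap, although near-identical copies may share reads. Of 13 ribosome biogenesis genes 8 rose in asap (61.5%), where 2 fell. In sr45 3 rose (23.1%) and in sap18sr45 2 rose (15.4%), near the 15.2% and 12.9% of all genes. NOP56, a core protein of the small nucleolar particles that guide methylation of ribosomal RNA, was 3.49-fold higher in asap (1.80 ± 0.08, adjusted p = 3.3e-16), and RH36, an RNA helicase, was lower (-0.95 ± 0.31, adjusted p = 0.0114).

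Of 9 plastid ribosomal protein genes 7 rose in sr45 (77.8%, against 15.2% of all genes) and 8 in sap18sr45 (88.9%, against 12.9%). In asap 3 of the plastid genes rose (33.3%, near the 25.6% of all genes) and 1 fell (11.1%, against 26%). Their median log2 change was 0.23 in sr45, 0.21 in sap18sr45 and 0.12 in asap, while that of the cytosolic members was 0.54, 0.41 and 0.85. In asap against sap18sr45 4 plastid genes were lower (44.4%, against 16.7% of all genes), where 31 cytosolic members were higher (70.5%, against 15.4%). The difference between the lists was not tested. Among 29 tested loci annotated as ribosomal under other names, 12 rose in asap (41.4%, against 25.6% of all genes). In asap 4 of them fell (13.8%, against 26% of all genes). RPL34, RPL13 and RPL4 of these loci carry no paralogue letter, like the plastid RPL6 and RPL21. RPL34 had a mean of 775 cRPKM in asap against 491 in Col0. RPL13 was at 570 against 440, and RPL4 at 325 against 328. This mixed list includes proteins of mitochondria and plastids, so the plastid counts above cover only the 9 genes listed. It also holds LOS1 and eEF-1Bb1, already counted among the translation factors, and MEE5, all matched through the name of a ribosomal protein family in their annotation. Of the same loci 9 rose in sr45 (31%, against 15.2%) and 6 in sap18sr45 (20.7%, against 12.9%). RPSAA, a small-subunit protein outside the name rule, was among those that rose in asap (0.96 ± 0.07, adjusted p = 3.53e-12).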

How the data were processed

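The authors mapped reads with vast-tools 2.5 to its TAIR10 library and deposited raw counts per gene and cRPKM, an RPKM corrected for mappability, for 8 libraries of 4 genotypes. The table was read in part: 9998 loci of chromosome 1 and the first part of chromosome 2, of which 9536 carried values. A row that names no locus (at most 0.00281% of a library's counts) was left out. No source used here says if strand entered the counting, so overlapping genes cannot be separated.

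Counts were tested in R 4.3.3 with edgeR 4.0.16: filterByExpr, TMM scaling and 1 robust quasi-likelihood model over all libraries, with 4 residual degrees of freedom and Benjamini-Hochberg adjustment over 5261 genes. Each SE was taken as the absolute log2 change divided by the root of F. The labels do not say whether replicates were separate cultures, so p-values rest on library-to-library spread, which may be technical. Paralogue ratios used a pseudocount of 0.5 and pairs with at least 50 mean counts. Both tests were also run on simulated data. For edgeR, counts were simulated with the common dispersion of the real fit and 200 genes changed in asap. It recovered 61.2% of the 1.5-fold changes, 86.6% of the 2-fold and 92.4% of the 4-fold changes. Sequences, coding identity and names of genes came from RefSeq (TAIR10.1), with Biopython 1.88.

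Members and lists were chosen with earlier results of these data known. Named genes are SR45, the stalk gene, the most abundant gene of each subunit, the 3 largest rises and falls against Col0, the 2 largest per step, and members that failed the filter. Others were chosen after their values were seen. Alternatives were RLE or no scaling, limma 3.58.1 (voom with quantile normalization, or log2 cRPKM), DESeq2 1.42.0, no filter, only the compared libraries, a replicate block, leaving out each library, and the study's rule.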

Additional observations from a re-analysis of the deposited data

How the results depend on the processing

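The counts of members called against Col0 stayed within 1.5 times of the reported 32 (sr45), 31 (sap18sr45) and 42 (asap) under every alternative but the study's rule of 2-fold in every pair, which called 1, 0 and 12, with 0 in sap18sr45 against sr45 and 1 in asap against sap18sr45. The share of all genes passing that rule, or called under any other alternative, was not counted. The member counts given here for the alternatives therefore have no background beside them. Leaving out each library gave 28 to 31 members for sr45, 26 to 30 for sap18sr45 and 36 to 39 for asap, and 19 to 31 for asap against sap18sr45, the low value being without sap18sr45 replicate 1. In sap18sr45 against sr45 the 2 calls became 1 with voom and with limma on log2 cRPKM (both pseudocounts), 4 without the filter and 0 to 5 when a library was left out. The share of counts without the 50 most counted other loci was 4.58% in asap, 3.74% in sr45 and 3.57% in sap18sr45, against 2.52% in Col0.

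Median log2 changes of the members kept their sign. With library totals alone they were 0.45 (sap18sr45), 1.01 (asap), -0.060 (sap18sr45 against sr45) and 0.52 (asap against sap18sr45), and with that scaling the median of all genes was 0.17 in asap against Col0 and 0.13 in asap against sap18sr45, where TMM gave 0.01 in both. With voom and quantile normalization they were 0.45, 0.88, -0.036 and 0.45 in the same order. With limma on log2(cRPKM + 0.5) they were 0.47, 1.01, -0.055 and 0.50, and with a pseudocount of 1 they were 0.46, 1.0, -0.055 and 0.50. Leaving out each library gave medians of 0.49 to 0.55 in sr45, 0.39 to 0.44 in sap18sr45, 0.79 to 0.85 in asap, -0.158 to -0.075 in sap18sr45 against sr45 and 0.35 to 0.40 in asap against sap18sr45. The causes of these differences were not tested.

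Replicates share only a number: same-numbered libraries had correlations of their deviations between -0.04 and 0.04. With the replicate block 31, 30 and 42 members were called in sr45, sap18sr45 and asap against Col0. In the steps it called 2 in sap18sr45 against sr45 and 30 in asap against sap18sr45. The share of all genes called with the block was not counted. With 2 libraries a group, members with few counts, such as RPL21F, could show only large changes.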
